A study of Homo sapiens with 18 samples.

Results

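The genes described here are 9 genes of antigen presentation by major histocompatibility complex (MHC) class I, of 19784 genes listed for each library. They are the heavy chains HLA-B, HLA-C, HLA-E and HLA-F, the light chain B2M, the peptide transporter subunits TAP1 and TAP2, the loading factor TAPBP and the transcriptional activator NLRC5. They were taken by name, without regard to how they changed, and all 9 passed the filter on low values in both experiments. RNA came from 18 poly(A) libraries of THP-1, a line of human leukaemic monocytes with the MLL-AF9 fusion. The gene varied was PHF8, whose protein binds chromatin through a PHD finger and removes histone methyl groups with a JmjC domain. Of the 6 ER libraries, taken on day 3, 2 were of ERDD (genotype PHF8DD, 4-OHT), 2 of ERPHF8 (genotype PHF8, no treatment named) and 2 of ERAA (genotype PHF8AA, 4-OHT at 100 nM as for ERDD). Every comparison with ERPHF8 is thus also one between libraries with and without that treatment label, and the letters ER, AA and DD are not spelled out in the labels. The first experiment held 12 libraries, 4 each of a line with PHF8, a line with F279S, known as a form of PHF8 without catalytic activity, and the parental line (wt). No label says whether replicates came from separate cultures, so the p-values measure the spread between these libraries, which may be technical.

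MHC class I molecules show peptides from inside the cell to CD8+ T cells. Proteasomes cut the peptides, the TAP transporter carries them into the endoplasmic reticulum, and tapasin (TAPBP) with its partners holds the heavy chain and B2M together until a peptide is bound. Transcription of these genes runs through a conserved promoter module read by NLRC5 with RFX, CREB and NF-Y factors, and through elements that answer to interferon and NF-kB, and the class I level on leukaemic monocytes bears on whether T cells and NK cells recognise them.

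Promoters of 6 members are shown because their genes took different courses in the ER lines. HLA-B and HLA-C were lower in ERDD than in ERAA, TAP1, TAP2 and B2M were higher, and TAPBP did not pass the test. Each run goes from 250 bases before to 50 bases after the RefSeq gene start (GRCh38.p14), on the gene's own strand, 5′ to 3′. Capitals mark matches, on either strand, to the core of the interferon-stimulated response element (GAAA, any 2 bases, GAAA) or to CCAAT, the Y box that NF-Y binds.

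HLA-B promoter, chr6:31357130-31357429, minus strand: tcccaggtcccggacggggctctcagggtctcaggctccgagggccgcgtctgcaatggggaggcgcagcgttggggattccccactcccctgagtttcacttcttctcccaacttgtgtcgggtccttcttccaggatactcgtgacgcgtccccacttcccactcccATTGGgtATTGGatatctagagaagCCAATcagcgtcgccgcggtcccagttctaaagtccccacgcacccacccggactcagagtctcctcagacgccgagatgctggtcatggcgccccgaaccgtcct

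HLA-C promoter, chr6:31272043-31272342, minus strand: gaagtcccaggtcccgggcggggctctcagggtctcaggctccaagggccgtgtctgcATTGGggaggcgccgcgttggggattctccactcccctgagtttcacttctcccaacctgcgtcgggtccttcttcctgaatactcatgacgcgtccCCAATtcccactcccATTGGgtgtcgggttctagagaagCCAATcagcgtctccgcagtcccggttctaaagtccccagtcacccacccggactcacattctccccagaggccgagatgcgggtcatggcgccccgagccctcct

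TAP1 promoter, chr6:32853655-32853954, minus strand: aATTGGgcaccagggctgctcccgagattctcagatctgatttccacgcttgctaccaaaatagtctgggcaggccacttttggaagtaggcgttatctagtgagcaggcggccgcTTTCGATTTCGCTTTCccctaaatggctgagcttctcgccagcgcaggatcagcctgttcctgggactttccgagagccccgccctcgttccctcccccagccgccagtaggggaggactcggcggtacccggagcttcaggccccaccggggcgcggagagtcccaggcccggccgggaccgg

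TAP2 promoter, chr6:32838690-32838989, minus strand: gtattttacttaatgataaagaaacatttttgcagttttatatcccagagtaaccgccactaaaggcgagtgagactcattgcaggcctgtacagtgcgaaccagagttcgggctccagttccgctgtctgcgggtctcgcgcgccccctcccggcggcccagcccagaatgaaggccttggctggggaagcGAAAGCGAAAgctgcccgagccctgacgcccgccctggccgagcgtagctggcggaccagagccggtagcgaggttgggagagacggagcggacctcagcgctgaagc

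B2M promoter, chr15:44711267-44711566, plus strand: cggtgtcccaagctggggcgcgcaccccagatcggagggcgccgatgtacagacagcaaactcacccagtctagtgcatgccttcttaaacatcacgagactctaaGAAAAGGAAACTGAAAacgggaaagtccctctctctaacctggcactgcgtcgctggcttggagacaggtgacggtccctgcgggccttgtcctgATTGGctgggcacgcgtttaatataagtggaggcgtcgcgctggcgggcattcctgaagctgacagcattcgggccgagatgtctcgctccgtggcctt

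TAPBP promoter, chr6:33314029-33314328, minus strand: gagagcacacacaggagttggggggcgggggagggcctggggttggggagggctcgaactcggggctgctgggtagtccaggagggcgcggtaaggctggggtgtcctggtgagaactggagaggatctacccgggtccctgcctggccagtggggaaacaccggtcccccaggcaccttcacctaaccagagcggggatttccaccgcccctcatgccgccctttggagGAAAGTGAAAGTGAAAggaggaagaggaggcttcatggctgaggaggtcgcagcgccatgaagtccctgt

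Promoters were found for 7 of the 9 members, and HLA-E and NLRC5 had none in the table used. The response element core stood in 5 of the 7, namely HLA-F, B2M, TAP1, TAP2 and TAPBP, and in 3.57% of 35116 promoters of the same length. HLA-B and HLA-C held no match to these letters in this window, which says nothing about whether a factor binds there. In B2M, TAP1 and TAPBP the matches overlapped as 2 in a row. CCAAT stood in 5 of the 7, against 34.6% of all promoters, with 3 matches in HLA-B and 4 in HLA-C. The kappa-B letters (GGG, any 5 bases, CC) were in 6 of the 7, against 58.7% of all. TATAAA was in 1 of the 7, against 11.5% of all. TTCNNNGAA, the interferon gamma-activated site, and TGACGT, part of the cyclic AMP response element, were in 0 of the 7, against 7.66% and 7.98% of all promoters. These matches are a description of letters. By the ERDD against ERAA result, the response element core stood in genes that rose or did not pass the test. CCAAT stood in genes that rose, fell or did not pass.

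Depth was 18.2 to 51.5 M reads per library, and 40.6 to 41.3 M in the ER libraries. The unit is CPM, which scales a read count to the total of its own library, recovered from the deposited RPKM. PHF8 RNA averaged 1109 ± 14.8 CPM in ERDD, 1906 ± 8.51 CPM in ERPHF8 and 2150 ± 219 CPM in ERAA (SD, n = 2 each). The ER lines thus also differed in the amount of PHF8 RNA, lowest in ERDD, and the part of this in their comparisons was not tested. In the first experiment PHF8 RNA followed the labels. It averaged 2020 ± 89.6 CPM in PHF8, 5381 ± 320 CPM in F279S and 50.6 ± 3.99 CPM in wt (SD, n = 4 each). Of 13 monocytic markers, 12 had a median of at least 1 CPM, and FCN1 stayed below 1 CPM in all libraries. Of 18 markers of other lineages, 10 were below 1 CPM in all libraries, while CD4 and PECAM1 were expressed. The summed monocytic markers came to between 2019 and 2060 CPM in ERDD, 1713 and 1718 CPM in ERPHF8, and 2135 and 2230 CPM in ERAA. In the first experiment the sum was 1646 to 2151 CPM in PHF8, 2184 to 2734 CPM in F279S and 2343 to 3268 CPM in wt. The sum was thus lower in ERDD and in ERPHF8 than in ERAA, and lower in PHF8 than in wt, as were several members. The summed markers of other lineages were 861 to 869 CPM in ERDD, 694 to 700.5 CPM in ERPHF8 and 798 to 808 CPM in ERAA, and 449 to 542 CPM in PHF8, 639.8 to 676 CPM in F279S and 519 to 667 CPM in wt. The part of either marker list in the results below was not tested. In bulk RNA, fewer cells of a type and less RNA per cell cannot be told apart.

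Of the members, 7 lie in the MHC on chromosome 6 of hg38. HLA-F is at chr6:29722775-29738528, HLA-E at chr6:30489467-30494205, HLA-C at chr6:31268749-31272130 and HLA-B at chr6:31353872-31357188. The loading genes follow, with TAP2 at chr6:32821833-32838780, TAP1 at chr6:32845209-32853978 and TAPBP at chr6:33299694-33314387. B2M is at chr15:44711477-44718877 and NLRC5 at chr16:56989485-57083531. Per kilobase of transcript, mean levels in wt were highest for B2M (585 CPM per kb), then HLA-B (397), HLA-C (126), TAPBP (79.5), HLA-E (50.2), TAP1 (42.5), TAP2 (29.6), NLRC5 (11.4) and HLA-F (2.28). In ERDD the mean levels on the same per-length scale were 1169 CPM per kb for B2M, 537 for HLA-B, 211 for HLA-C, 97.0 for HLA-E, 67.03 for TAP1, 61.9 for TAPBP, 46.6 for TAP2, 10.3 for NLRC5 and 1.29 for HLA-F. TAP1 stood above TAPBP in ERDD and below it in wt. HLA genes are highly polymorphic and resemble one another, and how reads matching several of them were counted is not given in the sources used here, so the levels of single heavy chains are uncertain. TAP1 lies inside the span listed for PSMB9, and TAP2 inside that of XXbac-BPG246D15.9, so those pairs may share reads.

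**Figure D1:**
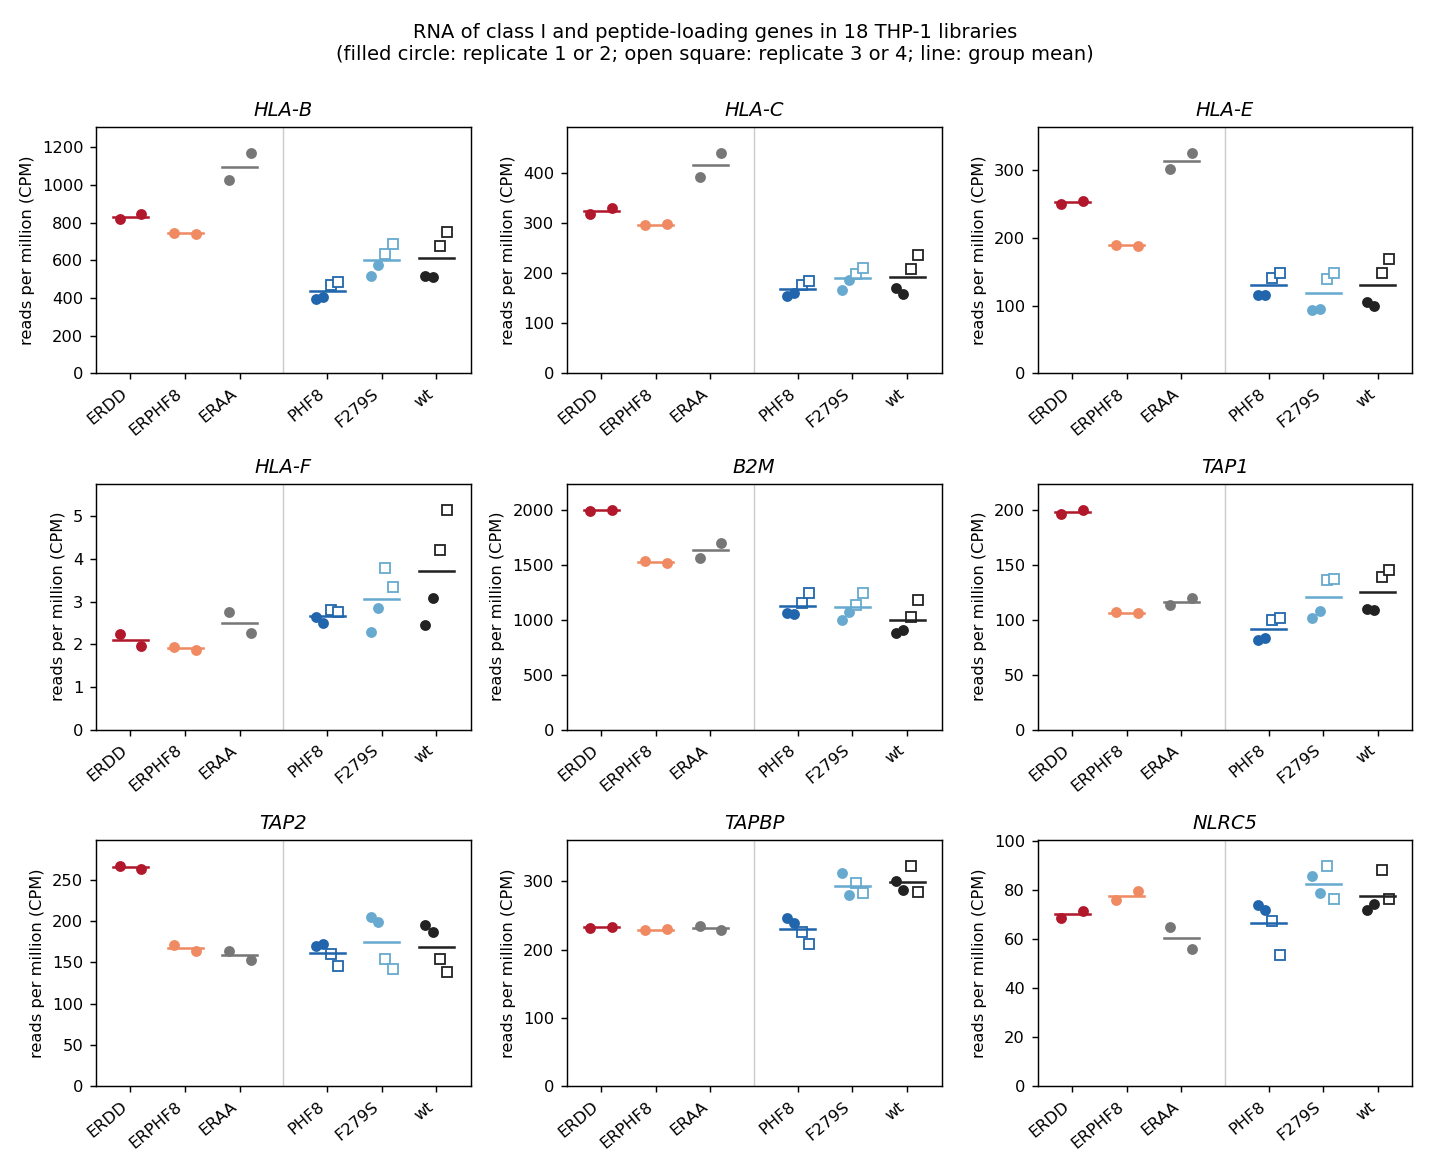
CPM (vertical axes, linear, from 0) of each of the 9 genes in all 18 libraries, by group, with a line at each group mean. ERAA is highest of the ER lines for HLA-B, HLA-C and HLA-E, ERDD is highest for B2M, TAP1 and TAP2, and squares of replicates 3 and 4 stand apart from circles of replicates 1 and 2 for several genes of the first experiment.

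The comparison of ERDD with ERAA set apart the lines that carry PHF8DD and PHF8AA, both labelled with 4-OHT. The parts of the pathway moved in opposite directions: TAP1, TAP2, B2M and NLRC5 rose, and the heavy chains HLA-B, HLA-C and HLA-E fell. The largest change was in the transporter, 1.70-fold for TAP1 and 1.67-fold for TAP2. In all 7 of 9 members passed the test, 4 higher and 3 lower, where 68.1% of 13831 genes passed (34.8% as higher and 33.3% as lower). The share of members called is near that background, and the median log2 change of the members was 0.01, against -0.00086 over all genes.

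TAP1, an ATP-binding subunit of the peptide transporter, had 196 and 200.2 CPM in ERDD, 107 and 106 CPM in ERPHF8, and 114 and 120.0 CPM in ERAA. Both ERDD libraries lay far above the other 4. Its log2 change was 0.76 ± 0.04 for ERDD against ERAA (SE, limma with Benjamini-Hochberg adjustment, adjusted p = 2.9e-06) and 0.89 ± 0.04 for ERDD against ERPHF8 (limma adjusted p = 5.2e-06). TAP2, the other subunit of the transporter, had 266 and 263 CPM in ERDD, 171 and 164 CPM in ERPHF8, and 163 and 153 CPM in ERAA. It was highest in ERDD, with no overlap between ERDD and the other groups. Its log2 change was 0.74 ± 0.05 against ERAA (limma adjusted p = 4.8e-06) and 0.66 ± 0.05 against ERPHF8 (limma adjusted p = 3.2e-05). TAP2 had 98.6 to 99.5% as many reads as were listed for the span that contains it.

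TAP1 had 62.2 to 70.1% as many reads as PSMB9, which encodes an immunoproteasome subunit, across the 18 libraries. Whether reads of TAP1 were also counted for PSMB9 is not known, because the counting and strand setting are not given. PSMB9 minus TAP1 came to 102.8 and 107 CPM in ERDD, 58.9 and 56.9 CPM in ERPHF8, and 57.3 and 62.6 CPM in ERAA. This is the rest of the PSMB9 span only if all TAP1 reads were counted for both. That remainder, too, was high in ERDD and apart from the other groups. No test was made of it.

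B2M, the light chain that every classical class I molecule needs, had 1988 and 1997 CPM in ERDD, 1537 and 1512 CPM in ERPHF8, and 1565 and 1696 CPM in ERAA. It was highest in both ERDD libraries, and its log2 change against ERAA was 0.29 ± 0.05 (limma adjusted p = 0.0013). NLRC5, the NLR-family activator of class I genes, had 68.6 and 71.5 CPM in ERDD, 75.8 and 79.5 CPM in ERPHF8, and 64.7 and 55.8 CPM in ERAA. Its 3 groups did not overlap, with ERPHF8 highest. NLRC5 rose by 0.22 ± 0.07 on the log2 scale in ERDD against ERAA (limma adjusted p = 0.024), a call that was lost without either ERDD library (limma adjusted p = 0.067 without replicate 1 and 0.14 without replicate 2). TAPBP, which bridges TAP and the empty heavy chain, had 232 and 234 CPM in ERDD, 229 and 230.0 CPM in ERPHF8, and 234 and 229.6 CPM in ERAA. Its 6 libraries lay within a few CPM of each other, and the 95% interval of the log2 change for ERDD against ERAA was -0.08 to 0.09. Under quantile normalization TAPBP was called lower in ERDD than in ERAA (-0.11, limma adjusted p = 0.021).

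HLA-B, a classical heavy chain that presents peptides to CD8+ T cells, had 819.7 and 843 CPM in ERDD, 745 and 741 CPM in ERPHF8, and 1026 and 1167 CPM in ERAA. HLA-C, the classical heavy chain best known as a ligand of killer immunoglobulin-like receptors, had 318 and 329.7 CPM in ERDD, 296 and 299 CPM in ERPHF8, and 393 and 439.9 CPM in ERAA. Both were highest in the ERAA libraries, and no group overlapped another. The log2 change for ERDD against ERAA was -0.40 ± 0.06 for HLA-B (limma adjusted p = 0.00062) and -0.36 ± 0.06 for HLA-C (limma adjusted p = 0.00066). HLA-E, which presents leader peptides of other class I chains to CD94/NKG2A on NK cells, had 249.6 and 255 CPM in ERDD, 189.8 and 189 CPM in ERPHF8, and 301 and 325 CPM in ERAA. The order was ERAA, then ERDD, then ERPHF8, with no overlap. HLA-E changed by -0.31 ± 0.05 for ERDD against ERAA (log2, limma adjusted p = 0.00048). HLA-F, a heavy chain of low expression, was low in all 6 libraries, at 2.24 and 1.96 CPM in ERDD, 1.94 and 1.86 CPM in ERPHF8, and 2.75 and 2.27 CPM in ERAA. These were 76 to 112 reads per library, and no comparison of HLA-F among the ER lines passed the test.

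**Figure D2:**
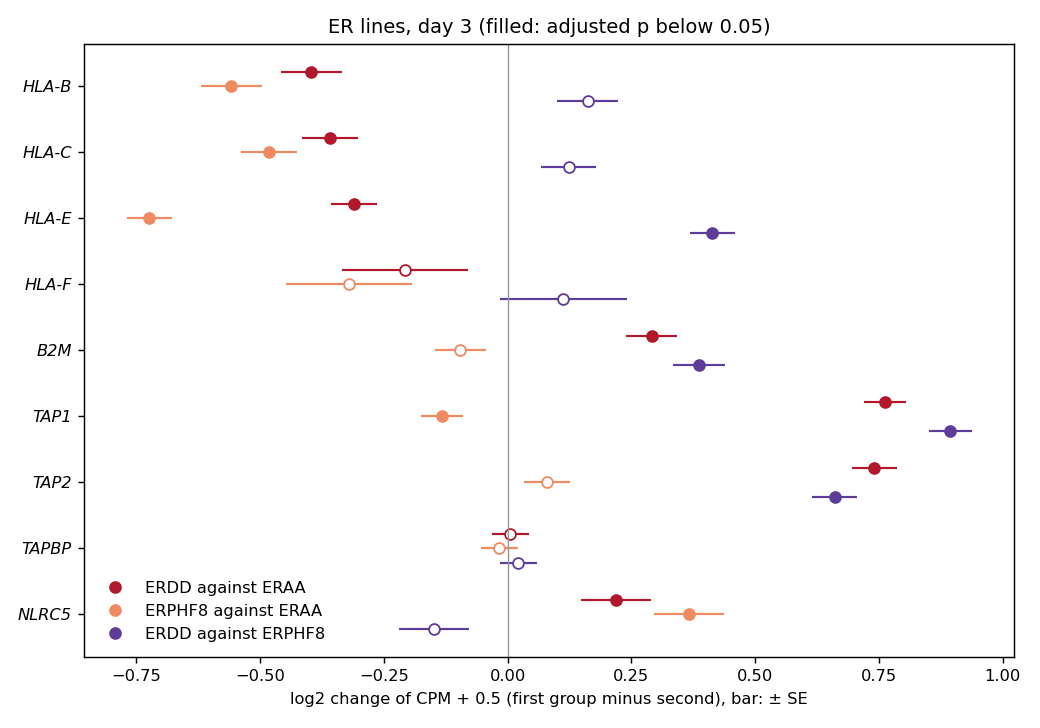
Log2 change of CPM + 0.5 (horizontal axis, first group minus second) of each gene in the 3 comparisons among the ER lines, with the standard error as a bar and filled points where the limma adjusted p is below 0.05. HLA-B, HLA-C and HLA-E lie left of 0 in both comparisons with ERAA, TAP1 and TAP2 lie far to the right in both comparisons of ERDD, and TAPBP lies near 0 in all 3.

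In ERPHF8 against ERAA, 5 of 9 members passed the test, 1 higher and 4 lower, where 53.8% of 13831 genes passed (29.7% as higher and 24.1% as lower). All the heavy chains that were called fell, and HLA-E fell most, to 0.605 of its ERAA mean. The log2 changes were -0.72 ± 0.05 for HLA-E (limma adjusted p = 2.2e-05), -0.56 ± 0.06 for HLA-B (limma adjusted p = 0.00022) and -0.48 ± 0.06 for HLA-C (limma adjusted p = 0.00029). TAP1 fell by 0.13 ± 0.04 on the log2 scale (limma adjusted p = 0.031), a call lost without any 1 of the ERDD or ERPHF8 libraries (limma adjusted p = 0.077 to 0.16). NLRC5 rose, with a log2 change of 0.37 ± 0.07 (limma adjusted p = 0.0032). B2M (-0.10 ± 0.05, limma adjusted p = 0.15) and TAP2 (0.08 ± 0.05, limma adjusted p = 0.17) did not pass. Without ERAA replicate 1 both passed, at -0.15 for B2M (limma adjusted p = 0.00017) and 0.13 for TAP2 (limma adjusted p = 0.0071). HLA-F did not pass (-0.32 ± 0.13, limma adjusted p = 0.064), and without ERAA replicate 2 it did, at -0.44 (limma adjusted p = 0.029). The median log2 change of the members was -0.13, against 0.04 over all genes.

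In ERDD against ERPHF8 the transporter genes rose as well, and no heavy chain was called lower. In this comparison 4 of 9 members passed, all higher, where 52.8% of genes passed in either direction, 24.8% as higher and 28% as lower. Besides TAP1 and TAP2, HLA-E changed by 0.41 ± 0.05 on the log2 scale (limma adjusted p = 0.00031) and B2M by 0.39 ± 0.05 (limma adjusted p = 0.00068). HLA-B (0.16 ± 0.06, limma adjusted p = 0.056), HLA-C (0.12 ± 0.06, limma adjusted p = 0.097) and NLRC5 (-0.15 ± 0.07, limma adjusted p = 0.11) did not pass. All 3 passed when either ERAA library was left out of the shared fit (limma adjusted p = 5.7e-05 to 0.0051), so that 7 members were then called, 6 higher and 1 lower. The comparisons among the ER lines share libraries, and their changes are therefore not independent of one another.

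PHF8 against wt set cells with added PHF8 beside the parental line. RNA was lower in PHF8 for a heavy chain, HLA-B, and for TAP1 and TAPBP of the loading machinery, to 0.713, 0.730 and 0.770 of the wt mean. No member was called higher. In all 3 of 9 members passed, where 21% of 13683 genes passed in either direction, 12.7% as higher and 8.28% as lower. The median log2 change of the members was -0.23, against 0.01 over all genes.

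HLA-B had 394, 406, 466 and 484 CPM in the 4 PHF8 libraries, 518, 573, 632 and 687 CPM in F279S, and 517, 509.7, 677 and 752 CPM in wt. Every PHF8 library lay below every library of the other groups, and F279S and wt overlapped. The log2 change of HLA-B for PHF8 against wt was -0.47 ± 0.14 (limma adjusted p = 0.027), and with the replicate number as a block its limma adjusted p was 8.1e-05. TAPBP had 246, 239, 226 and 208 CPM in PHF8, 313, 279.9, 298 and 283 CPM in F279S, and 300.5, 287, 322 and 285 CPM in wt. Again the PHF8 libraries lay below all others. The log2 change was -0.38 ± 0.07 against wt (limma adjusted p = 0.0020), and TAPBP passed with each library left out in turn. TAP1 had 81.5, 83.9, 99.5 and 102 CPM in PHF8, 102, 108, 137 and 138 CPM in F279S, and 109.7, 109, 139 and 145 CPM in wt. The PHF8 libraries lay below those of wt, and the highest of them reached the lowest F279S library. The log2 change of TAP1 against wt was -0.45 ± 0.13 (limma adjusted p = 0.033). Both HLA-B and TAP1 lost their call without PHF8 replicate 1, PHF8 replicate 2, wt replicate 3 or wt replicate 4, so that 1 member, TAPBP, was then called. The change of HLA-B was -0.43, -0.44, -0.42 and -0.37 without these 4 libraries in turn, and that of TAP1 -0.39, -0.41, -0.39 and -0.37.

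The other members did not pass between PHF8 and wt. B2M had 1060.5, 1054, 1155 and 1241 CPM in PHF8, 998, 1073, 1133 and 1240.4 CPM in F279S, and 878, 905, 1023 and 1182 CPM in wt, and its groups overlapped. NLRC5 had 73.7, 71.9, 67.2 and 53.6 CPM in PHF8, 85.8, 78.8, 89.6 and 76.1 CPM in F279S, and 71.8, 74.4, 88.2 and 76.1 CPM in wt. The PHF8 libraries of NLRC5 lay below those of F279S but overlapped wt. HLA-C averaged 169 ± 13.6 CPM in PHF8, 191 ± 19.0 CPM in F279S and 194 ± 36.4 CPM in wt (SD, n = 4 each). HLA-F averaged 2.67 ± 0.13 CPM in PHF8, 3.07 ± 0.64 CPM in F279S and 3.73 ± 1.19 CPM in wt (SD, n = 4 each). Their groups overlapped. The changes against wt were 0.18 ± 0.10 for B2M (limma adjusted p = 0.25), -0.23 ± 0.10 for NLRC5 (limma adjusted p = 0.16), -0.18 ± 0.12 for HLA-C (limma adjusted p = 0.36) and -0.37 ± 0.20 for HLA-F (limma adjusted p = 0.22). Under quantile normalization HLA-F was called lower in PHF8 than in wt (-0.55, limma adjusted p = 0.0091).

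Libraries of the first experiment with the same replicate number deviated together (correlations of 0.484 to 0.908). In 3 of the 12 cases, all in replicates 1 and 2, the correlation was higher with the other number of the same library pair. Within replicates 1 and 2 the number thus did not single out a partner, and a pairing by number was not established there. With the number as a block, 6 of 9 members were called between PHF8 and wt, where 41.4% of genes were. B2M was then higher (0.18, limma adjusted p = 0.0066), and HLA-C (limma adjusted p = 0.039) and NLRC5 (limma adjusted p = 0.047) joined HLA-B, TAP1 and TAPBP as lower. These 3 added calls were lost when the libraries of a pair were averaged and the pair was the block (limma adjusted p = 0.16 for B2M, 0.22 for HLA-C and 0.25 for NLRC5), while HLA-B, TAP1 and TAPBP passed there.

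In F279S against wt, 0 of 9 members passed the limma test, where 0.0146% of genes passed, 2 of 13683. At an unadjusted p below 0.05, 871 genes passed, none of them a member, and voom on the recovered reads called 2 genes, none of them a member. The log2 changes of the members ranged from -0.22 ± 0.20 for HLA-F to 0.16 ± 0.10 for B2M. For HLA-B the 95% interval of the change was -0.31 to 0.28, and for TAPBP it was -0.17 to 0.12. Changes within these limits are compatible with this fit. With the replicate block 0 of 9 members were called, where 2.18% of genes were (298). PHF8 reads, added and resident together, came to 5381 CPM in these cells and 2020 CPM in the PHF8 line.

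PHF8 against F279S, the comparison of the line with PHF8 and the line with the inactive form, called 2 of 9 members, both lower, where 20.1% of genes passed, 12.2% as higher and 7.92% as lower. These were HLA-B (-0.46 ± 0.14, limma adjusted p = 0.033) and TAPBP (-0.35 ± 0.07, limma adjusted p = 0.0033). TAP1 (-0.39 ± 0.13, limma adjusted p = 0.057) and NLRC5 (-0.32 ± 0.10, limma adjusted p = 0.052) did not pass. With the replicate block 5 members were called, all lower, where 41.1% of genes were: HLA-B, TAPBP, TAP1 (limma adjusted p = 3.9e-05), NLRC5 (limma adjusted p = 0.010) and HLA-C (limma adjusted p = 0.048). With averaged pairs and a pair block, NLRC5 (limma adjusted p = 0.13) and HLA-C (limma adjusted p = 0.24) were lost and the other 3 passed. Without the block HLA-B lost its call when any of 6 libraries was left out, PHF8 replicates 1, 2 and 3 and F279S replicates 2, 3 and 4 (log2 changes of -0.39 to -0.49). TAP1 gained one without F279S replicate 1 (limma adjusted p = 0.038), and NLRC5 gained one without PHF8 replicate 1 (0.048) or wt replicate 3 (0.041). With median of ratios scaling both TAP1 (limma adjusted p = 0.042) and NLRC5 (0.027) passed. NLRC5 also passed with voom on the recovered reads (limma adjusted p = 0.048). The median log2 change of the members was -0.17, against 0.02 over all genes. PHF8 against wt and PHF8 against F279S share the PHF8 libraries.

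Replicates 1 and 2 of the first experiment stood apart from replicates 3 and 4, and no label names the pairs as batches. With the group as a term, 7 of 9 members differed between the pairs, where 62.9% of genes did. HLA-E (0.51 ± 0.05, limma adjusted p = 7.5e-06), TAP1 (0.35 ± 0.03) and HLA-B (0.33 ± 0.05) were higher in replicates 3 and 4, as were HLA-F, HLA-C and B2M, and TAP2 was lower (-0.33 ± 0.05). TAPBP and NLRC5 did not pass. These differences between pairs entered the error of the fit without a block.

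Within each pair, HLA-B, TAP1 and TAPBP were lower in PHF8 than in wt. The log2 change of HLA-B was -0.36 in replicates 1 and 2 and -0.59 in replicates 3 and 4. That of TAP1 was -0.40 and -0.49, and that of TAPBP was -0.28 and -0.48, in the same order of pairs. All 3 were called in both pairs. In replicates 1 and 2 alone 6 of 9 members were called (52% of genes), and in replicates 3 and 4 alone 6 of 9 (42.1% of genes). For PHF8 against F279S the counts were 7 of 9 (54.5% of genes) and 4 of 9 (35.1% of genes) in the same order, and for F279S against wt 1 of 9, B2M (14.2% of genes), and 0 of 9 (0.0865% of genes). With the library pair as a term over all 12 libraries, 6 of 9 members were called for PHF8 against wt (40.9% of genes), 5 of 9 for PHF8 against F279S (40.7%) and 0 of 9 for F279S against wt (2.18%). For PHF8 against wt these 6 were not the 6 of the replicate block: HLA-F was called with the pair term (limma adjusted p = 0.039) and not with the block (0.051), and NLRC5 with the block and not with the pair term (0.079). A change that differed between the pairs was called for 2 of 9 members in PHF8 against wt, HLA-E and NLRC5 (30.5% of genes), and for 2 of 9 in PHF8 against F279S, HLA-E and TAP2 (21.8% of genes). In F279S against wt it was called for 0 of 9 members (0.899% of genes). HLA-E had 116, 116, 141 and 148 CPM in PHF8, 94.0, 95.01, 139 and 148 CPM in F279S, and 106, 99.7, 149 and 168 CPM in wt. It was higher in PHF8 than in wt within replicates 1 and 2 (0.17, limma adjusted p = 0.011), and did not pass within replicates 3 and 4 (-0.13, limma adjusted p = 0.17). TAP2 had 169, 172, 159.7 and 146 CPM in PHF8, 205, 199, 154 and 142 CPM in F279S, and 195, 187, 155 and 138 CPM in wt. In replicates 1 and 2 its PHF8 libraries were below the others, with a change of -0.16 against wt (limma adjusted p = 0.011), and in replicates 3 and 4 the change was 0.07 (limma adjusted p = 0.53). NLRC5 did not pass in replicates 1 and 2 (-0.01, limma adjusted p = 0.94) and was lower in replicates 3 and 4 (-0.44, limma adjusted p = 0.034).

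**Figure D3:**
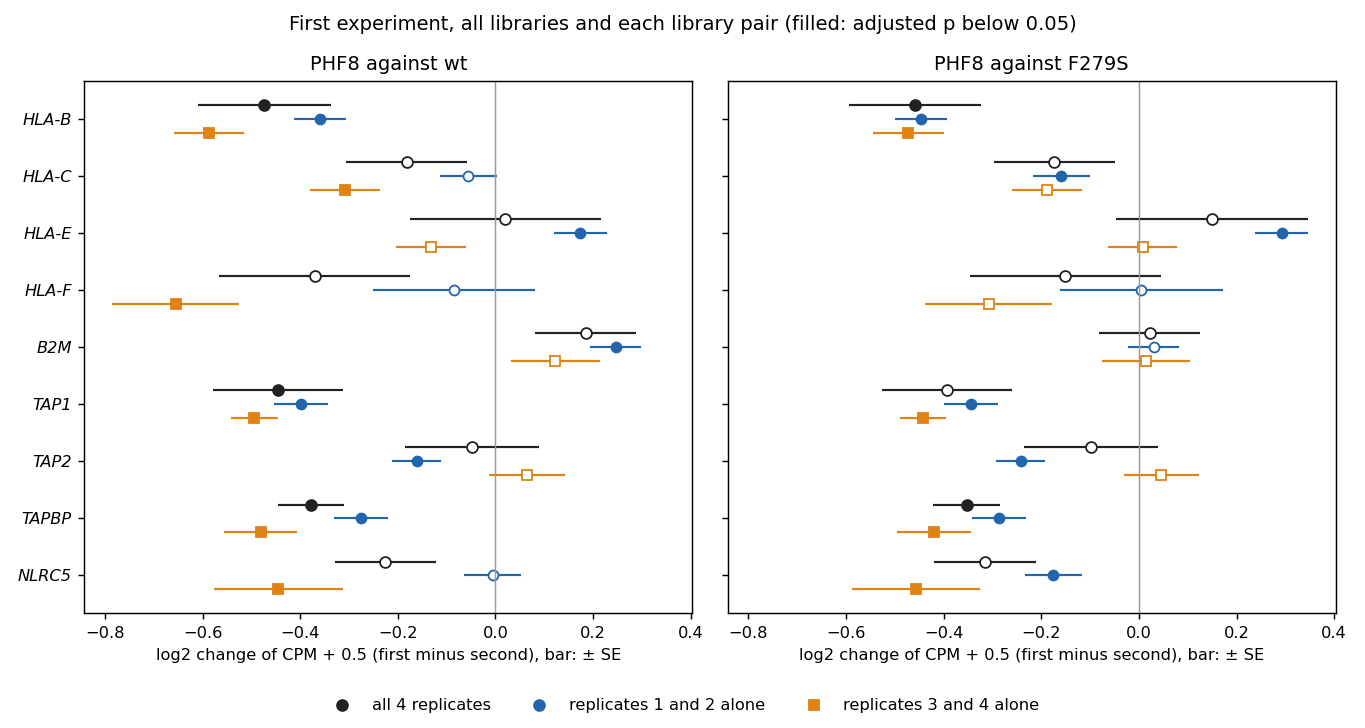
Log2 change of CPM + 0.5 (horizontal axis, first group minus second) of each gene for PHF8 against wt (left) and PHF8 against F279S (right), over all 4 replicates and within each library pair, with the standard error as a bar and filled points where the limma adjusted p is below 0.05. HLA-B, TAP1 and TAPBP lie left of 0 in both pairs, while HLA-E and TAP2 against wt lie on different sides of 0 in the pairs.

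The heavy and the light chain form 1 molecule, so their RNA was also set as a ratio within each library. This ratio was chosen after the values had been seen. HLA-B reads per B2M read were 0.412 and 0.422 in ERDD, 0.485 and 0.490 in ERPHF8, and 0.656 and 0.688 in ERAA. In the first experiment they were 0.372, 0.385, 0.404 and 0.390 in PHF8, 0.519, 0.534, 0.558 and 0.554 in F279S, and 0.589, 0.563, 0.662 and 0.636 in wt. In both experiments no group overlapped another, and the order was ERDD, ERPHF8, ERAA and PHF8, F279S, wt from low to high. The mean ratio was 0.388 ± 0.013 in PHF8 and 0.613 ± 0.045 in wt (SD, n = 4 each). The exact two-sided permutation p was 0.0286, the smallest that 4 against 4 libraries can give, and 0.0686 after adjustment over 12 tests. F279S, at 0.541 ± 0.018, lay below wt and above PHF8 with the same exact permutation p values. The 12 tests also covered the ratios of HLA-C and HLA-E to B2M and of TAP1 to TAP2. The TAP1 to TAP2 ratio gave an unadjusted exact permutation p of 0.229 to 0.6 in the first experiment. With 2 libraries a group, the smallest exact permutation p is 0.333, so the ER lines cannot pass.

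HLA-C reads per B2M read averaged 0.163 ± 0.004 in ERDD, 0.195 ± 0.004 in ERPHF8 and 0.255 ± 0.006 in ERAA (SD, n = 2 each). In the first experiment the HLA-C ratio averaged 0.150 ± 0.004 in PHF8, 0.171 ± 0.004 in F279S and 0.193 ± 0.013 in wt (SD, n = 4 each). The groups of the ER lines did not overlap, nor did PHF8 and either other group, while F279S and wt touched. HLA-E reads per B2M read averaged 0.127 ± 0.001 in ERDD, 0.124 ± 0.001 in ERPHF8 and 0.192 ± 0.001 in ERAA (SD, n = 2 each). In the first experiment the HLA-E ratio overlapped between all groups, at 0.115 ± 0.007 in PHF8, 0.106 ± 0.017 in F279S and 0.130 ± 0.017 in wt (SD, n = 4 each). B2M itself did not pass between PHF8 and wt without the block, and rose in ERDD against ERAA.

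**Figure D4:**
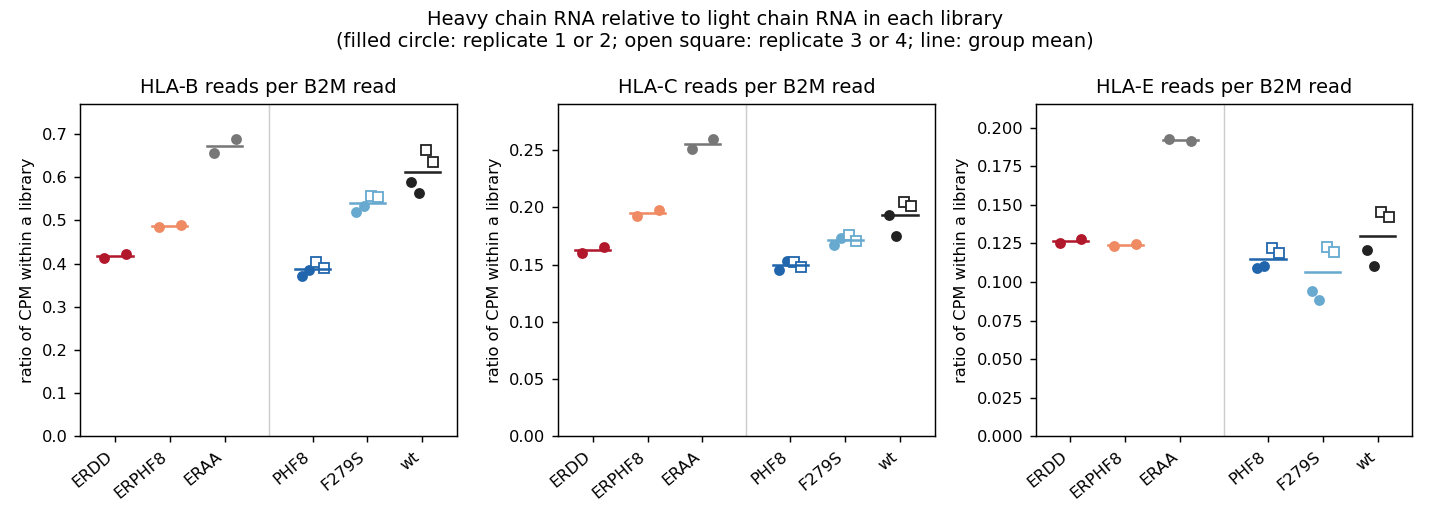
Ratio of HLA-B, HLA-C and HLA-E reads to B2M reads within each library (vertical axes, linear, from 0), by group, with a line at each group mean. For HLA-B the PHF8 libraries lie at 0.372 to 0.404, below 0.519 to 0.558 in F279S and 0.563 to 0.662 in wt, and the ERDD libraries at 0.412 and 0.422 lie below those of ERPHF8 and ERAA.

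Genes that supply peptides or assist loading in the endoplasmic reticulum were counted from a list of 18, of which 17 were tested. In ERDD against ERAA 13 of the 17 were higher and 0 lower (34.8% and 33.3% of all genes), with a median log2 change of 0.46, against -0.00086 over all genes. In ERPHF8 against ERAA 10 were higher and 0 lower (29.7% and 24.1% of all genes), and in ERDD against ERPHF8 11 were higher and 1 lower (24.8% and 28%). CALR (calreticulin, the chaperone that holds tapasin and heavy chain) averaged 2274 ± 45.0 CPM in ERDD, 1421 ± 3.004 CPM in ERPHF8 and 813 ± 55.7 CPM in ERAA (SD, n = 2 each). Its log2 change for ERDD against ERAA was 1.49 ± 0.05 (limma adjusted p = 3.8e-07). HSPA5 (BiP, the general chaperone of that compartment) changed by 0.92 ± 0.04, and PSME2, a proteasome activator subunit, by 1.15 ± 0.06. PSMB9, whose span contains TAP1, changed by 0.78 ± 0.05, and its count may include reads of TAP1. In PHF8 against wt, where 12.7% of all genes were called higher and 8.28% lower, 1 gene of the 17 rose and 0 fell. It was TAPBPL, a peptide editor related to tapasin, with a log2 change of 0.41 ± 0.08 (limma adjusted p = 0.0035). In F279S against wt and PHF8 against F279S it was 0 of 17 in either direction.

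Transcription factors of class I promoters were counted from a list of 18, all tested. In ERDD against ERAA 10 were higher and 3 lower, where 34.8% and 33.3% of all genes were. In ERPHF8 against ERAA 10 were higher and 2 lower (29.7% and 24.1% of all genes), and in ERDD against ERPHF8 5 and 3 (24.8% and 28%). In either direction 13, 12 and 8 of the 18 were called, beside 68.1%, 53.8% and 52.8% of all genes. In ERDD against ERAA the log2 change was 1.35 ± 0.06 for IRF9 and 0.58 ± 0.06 for STAT2, which act together in the interferon response, and 0.44 ± 0.04 for NFYA, an NF-Y subunit. In PHF8 against wt IRF2 rose (0.35 ± 0.11, limma adjusted p = 0.049) and NFKB1 fell (-0.50 ± 0.17, limma adjusted p = 0.0495), and in F279S against wt 0 of 18 passed.

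Interferon-stimulated genes were counted from a list of 30. All were called higher in each comparison among the ER lines, and only some in PHF8 against wt and PHF8 against F279S. Of the heavy chains, HLA-B, HLA-C and HLA-E were called lower in ERDD and in ERPHF8 against ERAA. Only HLA-B was called lower in PHF8 against wt and PHF8 against F279S. In ERDD against ERPHF8 no heavy chain was called lower and HLA-E was called higher. All 30 were higher in ERDD than in ERAA, in ERPHF8 than in ERAA, and in ERDD than in ERPHF8, with median log2 changes of 2.79, 1.30 and 1.49, where 34.8%, 29.7% and 24.8% of all genes were called higher. MX1, an antiviral GTPase, averaged 459.6 ± 3.65 CPM in ERDD, 106 ± 0.92 CPM in ERPHF8 and 17.6 ± 0.03 CPM in ERAA (SD, n = 2 each). In the same libraries HLA-B, HLA-C and HLA-E were highest in ERAA, and TAP1 and TAP2 were highest in ERDD. In PHF8 against wt 15 of the 30 were higher and 1 lower (12.7% and 8.28% of all genes), with a median of 0.57, while HLA-B, TAP1 and TAPBP were lower. In PHF8 against F279S 9 were higher and 0 lower (12.2% and 7.92% of all genes), and in F279S against wt 0 of 30 passed, with a median of 0.28.

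The genes whose level followed a member most closely over the 18 libraries, each experiment centred on its own mean, were listed for NLRC5, TAP1 and B2M among 13544 genes. These correlations are across libraries that share groups and library pairs, and are given as a description. For NLRC5 they were NDUFAF5 (Pearson r = 0.92), ARTN (0.90), DOT1L (0.89), MEF2D (0.88) and DDX11 (0.88). For TAP1 they were PSMB9 (0.99, possibly with shared reads), SFXN5 (0.97), TMEM91 (0.94), SLC4A2 (0.94) and AKT1 (0.93). For B2M they were CD68 (0.94), ARPC1B (0.91), CAPZB (0.90), AP1S1 (0.89) and PRR29 (0.89). Among the members themselves HLA-B and HLA-C stayed close, at 0.93 over the 18 libraries, 0.91 in the first experiment and 1.00 in the 6 ER libraries. HLA-B and TAP1 were close in the first experiment (0.98) and not in the ER libraries (-0.08). TAP1 and TAP2 were the reverse, at -0.49 in the first experiment and 0.96 in the ER libraries. NLRC5 ran against HLA-B in the ER libraries (-0.96) and weakly with it in the first experiment (0.46).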

How the data were processed

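RNA of 18 THP-1 libraries in 6 groups was analysed, each library placed by its title and genotype label. For each, the authors deposited RPKM values of 19784 genes over the full gene span (introns included) with hg38 coordinates. The tools listed are STAR 2.7.0c, SAMtools 1.9 and DESeq2, with build hg38, per the submitters' processing notes. How reads were counted, with which annotation and on which strand is not given in the sources used, so overlapping genes cannot be told apart.

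RPKM times span in kilobases gave CPM, and every value was a whole number of reads within 0.001, so depth was recovered. limma 3.58.1 (R 4.3.3) with an intensity-dependent prior was fitted to log2(CPM + 0.5) of all genes with at least 1 CPM in at least 4 of 12 or 2 of 6 libraries, 13683 and 13831 genes, with group as the term and Benjamini-Hochberg adjustment over all genes. Genes with an adjusted p below 0.05 were called. Fold changes on this scale understate the change of low genes such as HLA-F. All replicate pairs differed beyond sampling noise (chi-square per degree of freedom of at least 1.855). This value was 15.37 in ERAA, 3.278 in ERPHF8 and 1.855 in ERDD, and reached 74.99 in the first experiment. The fit pooled the spread over the groups of an experiment, so the ER standard errors average unequal groups. The pipeline was tested on simulated data. Levels per length used the longest protein-coding CCDS transcript of GENCODE v29 among those tagged as principal isoform, or among all where none was. Promoters are RefSeq's. The members, lists, named-gene rule (all members, and up to 4 genes of a list by smallest p among those called) and tests were chosen with earlier results of these data known.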

Additional observations from a re-analysis of the deposited data

Results flagged for a closer look

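Whether the first experiment's changes differed between replicates 3 and 4 and replicates 1 and 2 was tested with an interaction term in limma over all genes, for the 9 members in 3 comparisons (27 tests). It was called for 4. The change of HLA-E was lower in replicates 3 and 4 by a log2 difference of -0.306 for PHF8 against wt (limma adjusted p = 0.020) and of -0.285 for PHF8 against F279S (limma adjusted p = 0.035). The change of NLRC5 differed by -0.439 for PHF8 against wt (limma adjusted p = 0.041). The change of TAP2 differed by 0.289 for PHF8 against F279S (limma adjusted p = 0.041). The same term was called for 30.5% of genes in PHF8 against wt, 0.899% in F279S against wt and 21.8% in PHF8 against F279S. Of the 27 sets of 4 libraries checked for a single library far from the rest, 0 had one.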

How the results depend on the processing

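Of the single-gene log2 changes recomputed under the alternatives, 926 kept their direction and side of the threshold, 25 lost a call, 46 gained one and 38 turned sign. The count of members called for PHF8 against wt (3) was 6 with the library pair as a term, with the replicate block, in replicates 1 and 2 alone and in replicates 3 and 4 alone, and 1 to 3 with 1 library left out. For F279S against wt (0) it was 1 in replicates 1 and 2 alone, where B2M rose by 0.2161. For PHF8 against F279S (2) it was 5 with the pair term, 4 with median of ratios scaling, 5 with the replicate block, 7 in replicates 1 and 2, 4 in replicates 3 and 4, and 1 to 3 with 1 library left out. With 1 library left out it was 6 to 7 for ERDD against ERAA, 4 to 7 for ERPHF8 against ERAA and 4 to 7 for ERDD against ERPHF8. A lone library of a group was then assumed to vary like the others.

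Signs turned for PHF8 against wt in replicates 3 and 4 (HLA-E -0.1324, TAP2 0.06555). They turned for F279S against wt in replicates 1 and 2 (HLA-B 0.08623, HLA-C 0.1037, TAPBP 0.01081). For PHF8 against F279S they turned for HLA-F in replicates 1 and 2 (0.005281), for TAP2 in replicates 3 and 4 (0.04626), and for B2M with median of ratios scaling (-0.00213) and quantile normalization (-0.03475). Quantile normalization also turned TAPBP in ERDD against ERAA (-0.1112) and ERDD against ERPHF8 (-0.04537), and B2M (0.05367) and TAP2 (-0.002863) in ERPHF8 against ERAA. With 1 library left out, signs turned within these ranges: PHF8 against wt HLA-E -0.09704 to 0.1534 and TAP2 -0.1396 to 0.02617; F279S against wt HLA-B -0.09688 to 0.08988, HLA-C -0.09985 to 0.09495, HLA-E -0.2469 to 0.00345, TAP1 -0.1183 to 0.02552, TAP2 -0.04158 to 0.143 and TAPBP -0.05653 to 0.01144. For PHF8 against F279S B2M ran from -0.02769 to 0.07669, and for ERDD against ERAA TAPBP from -0.009553 to 0.02028. The cause of these turns was not tested.

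NLRC5 in ERDD against ERAA was also lost with no filter on low values (limma adjusted p = 0.054), without the intensity trend (0.054) and with quantile normalization (0.10). TAP1 in ERPHF8 against ERAA was lost without the trend (0.071), and TAP1 in PHF8 against wt with quantile normalization (-0.4206). With quantile normalization the change of HLA-B in ERDD against ERAA shrank to -0.19 and stayed called (limma adjusted p = 0.00042). In ERDD against ERPHF8 HLA-B then gained a call (0.20, limma adjusted p = 0.00075). HLA-F in ERPHF8 against ERAA gained one with median of ratios scaling (limma adjusted p = 0.038) and without the trend (0.034). Averaged over the libraries of a pair, with a block for the pair, HLA-B, TAP1 and TAPBP, and no other member, were called in both comparisons of PHF8. No pairing was established for the ER libraries (same-number correlations of 0.10, -0.0025 and -0.34). There the replicate block called 7 members and 9068 genes for ERDD against ERAA, 5 and 6900 for ERPHF8 against ERAA, and 4 and 6801 for ERDD against ERPHF8, the same numbers of members as without it. With crossed numbers, chosen after seeing the data, ERPHF8 against ERAA had 5 members and 7784 genes called, against 7436 genes without a block.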

Other observations

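Class I-like chains, not all of which pair with B2M, were counted from a list of 16. In ERDD against ERAA 4 of 11 tested genes were higher and 5 lower (34.8% and 33.3% of all genes), in ERPHF8 against ERAA 2 and 5 (29.7% and 24.1%), and in ERDD against ERPHF8 4 and 3 (24.8% and 28%). CD1D, which presents lipids to NKT cells, averaged 32.7 ± 0.36 CPM in ERDD, 11.3 ± 0.53 CPM in ERPHF8 and 8.92 ± 0.55 CPM in ERAA (SD, n = 2 each), a log2 change of 1.82 ± 0.07 for ERDD against ERAA (limma adjusted p = 5.3e-07). ULBP1, a stress ligand of the NK receptor NKG2D, averaged 2.66 ± 0.06 CPM in ERDD, 8.81 ± 0.27 CPM in ERPHF8 and 18.7 ± 1.25 CPM in ERAA (SD, n = 2 each), a change of -2.60 ± 0.08 for ERDD against ERAA (limma adjusted p = 1.8e-07). MICB, another NKG2D ligand, rose (0.74 ± 0.08, limma adjusted p = 0.00011) where ULBP1 fell. FCGRT, the heavy chain of the neonatal Fc receptor, was lower in ERDD than in ERAA (-1.12 ± 0.05) and lower in PHF8 than in wt (-0.39 ± 0.08, limma adjusted p = 0.0043). In PHF8 against wt 2 of 10 were higher and 3 lower (12.7% and 8.28% of all genes). HFE, a regulator of iron uptake that pairs with B2M, averaged 4.93 ± 0.46 CPM in PHF8 and 1.70 ± 0.22 CPM in wt (SD, n = 4 each), a log2 change of 1.31 ± 0.14 (limma adjusted p = 6.5e-05). In PHF8 against F279S 1 was higher and 3 lower (12.2% and 7.92%), and in F279S against wt 0 of 10 passed.

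The list of class I repression and turnover held 14 symbols, some of them old and new names of the same gene. Of the 12 found among the listed genes, 11 were tested. In ERDD against ERAA 3 were higher and 2 lower, 5 of 11 in all, where 68.1% of all genes were called in either direction. EZH2 and EED, subunits of the Polycomb complex that writes H3K27 methylation, changed by 0.57 ± 0.05 (limma adjusted p = 1.7e-05) and 0.49 ± 0.05 (limma adjusted p = 7.2e-05), and EZH1, the alternative catalytic subunit, by -0.74 ± 0.09 (limma adjusted p = 0.00015). The counts were 3 higher and 2 lower in ERPHF8 against ERAA (29.7% and 24.1% of all genes), and 3 and 3 in ERDD against ERPHF8 (24.8% and 28%). In PHF8 against wt and in PHF8 against F279S 0 were higher and 2 lower (8.28% and 7.92% of all genes were lower), SUZ12 and SUSD6 in each, and in F279S against wt 0 of 11 passed.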
